A study of Mus musculus with 7 samples.

Results

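Thymus RNA from mice homozygous for a mutation of the first zinc finger of Ikaros (Ikaros ZnF1-/-, replicates 1 and 2) was compared with thymus RNA from wild type C57BL/6 mice (replicates 1, 2A and 2B). These 5 of the series' 7 RNA-seq libraries were taken by their labels and columns, not by any measured value, and 10365 of 16734 listed genes were tested, those with a mean of at least 1 RPKM (reads scaled to exon length and to the library's mapped reads) over the 5 libraries. The other 2 libraries came from Ikaros ZnF4-/- mice, which carry a mutation of the fourth finger, and they helped to estimate the spread between libraries. All mice were 4 weeks old, and RNA was taken from strained cell suspensions of whole thymus with no sort, so each value is an average over every cell type that passed the strainer. The labels give no strain background for the mutants, no sex, and no word on whether an animal or a pool gave each library.

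Ikaros, encoded by Ikzf1, is a zinc finger transcription factor of lymphoid cells that works in part through chromatin remodelling complexes such as NuRD and can repress or activate its targets. Its amino-terminal fingers bind DNA: the second and the third contact the core motif GGGAA, and the first and the fourth adjust which sites are bound well. In the thymus it takes part in the control of early T cell development and of proliferation, and mice without Ikaros lack B cells.

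Replicate 1 of each genotype was sequenced with 76 bp reads and the other libraries with 50 bp reads, so the mutant and wild type were compared inside each read-length batch and the replicate number was kept as a block. Xist, the RNA that coats the inactive X chromosome of females, ranged from 90.6 to 109 RPKM with 76 bp reads but only from 0.01 to 0.03 RPKM with 50 bp reads, and for the Y-linked Ddx3y the ranges were 0 to 0.01 and 13.2 to 17.4 RPKM. Read length, instrument and this sex difference therefore move together and cannot be told apart, but both genotypes are present on each side. Between 10185 and 10364 genes reached 1 RPKM in each of the 5 libraries. ZnF1-/- replicate 1 stood apart in Fos and Jun. Fos, an immediate-early transcription factor, was at 15.79 RPKM there, 1.17 RPKM in ZnF1-/- replicate 2 and 1.05, 1.08 and 1.28 RPKM in wild type. Its partner Jun was at 16.09 RPKM in that library, 2.11 RPKM in the other mutant library and 1.29 to 1.55 RPKM in wild type, and neither gene passed the test. Not every immediate-early gene was high there: Egr2 was at 4.60 RPKM, against 7.29 RPKM in wild type replicate 1. On the immediate-early and heat-shock list, 3 of 14 tested genes were higher and 3 lower in ZnF1-/- at an unadjusted p under 0.05 (limma). The labels name the libraries as replicates without saying that they came from separate animals, so p-values measure the spread between these libraries, which may in part be technical.

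In the ZnF1-/- thymus 59 genes rose and 29 fell at an adjusted p under 0.05 (limma, Benjamini-Hochberg over all tested genes), which is 0.849% of the tested genes, 0.569% for rises and 0.28% for falls. The genes that rose were mostly at low level in wild type: 15 had a wild type mean under 1 RPKM, 34 lay from 1 to 10 RPKM and 10 were higher. Those 15 passed the filter on the mean only through their ZnF1-/- values. The genes that fell were all above 1 RPKM in wild type, 18 of them below 10 RPKM, which the filter on the mean favours, since a gene that falls can pass it through its wild type level alone. Changes are differences of log2(RPKM + 0.5), which understates the fold change of low genes. On that scale the rises had a median of 1.03 and the falls a median of -0.98, against 0.01 over all tested genes; 32 rises and 13 falls reached 1 unit, and 8 rises and 1 fall reached 2 units.

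All 88 genes moved in the same direction in both batches, against 57.7% of the tested genes. In 57 of the 59 rises both mutant libraries were above all 3 wild type libraries, and in all 29 falls both were below them, against 6.81% and 6.72% of tested genes. The genes were chosen by a test blocked on these batches, which favours both properties, so these shares describe the calls and add no support. The exceptions were Mir142 and Bst2, whose 76 bp mutant value was above the 76 bp wild type value while the batches lay far apart. The number of calls depended on the block and on single libraries. Without the replicate block 8 genes passed, all of them rises and all among the 88: Fam163b, Dkkl1, Crispld2, Ctnnd1, Sema4g, Syt14, Peli2 and Plekhg3. The labels do not say whether wild type 2A and 2B are separate animals or libraries of 1 preparation, and with the 2 averaged to 1 library 26 genes passed. Leaving out 1 library gave 41 calls without wild type replicate 1, 62 without 2A, 17 without 2B, 23 without ZnF1-/- replicate 1, 26 without ZnF1-/- replicate 2, and 218 and 213 without ZnF4-/- replicate 1 or 2. None of the 88 changed sign in any of these fits.

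The 2 batches share no library, so a difference picked in one could be read in the other. The tested genes, though, had been filtered on their mean over the libraries of both batches. A gene with a wild type mean under 1 RPKM passed that filter only through its ZnF1-/- values, which favours a rise in both batches. The shares below therefore describe the overlap and are not independent support. Of 38 genes at least 1 log2 unit higher in ZnF1-/- in the 50 bp batch, 37 were also higher in the 76 bp batch and 25 by at least 1 unit, where 54.1% and 1.11% of all tested genes did so. Of 26 genes at least 1 unit lower in the 50 bp batch, 24 were lower and 13 were lower by 1 unit in the 76 bp batch, against 45.6% and 0.897%. Picked the other way round, the overlap was looser: 74 of 115 genes that were 1 unit higher in the 76 bp batch were higher in the 50 bp batch and 25 reached 1 unit, against 51.8% and 0.367%. For the 93 genes 1 unit lower in the 76 bp batch these numbers were 59 and 13, against 48.2% and 0.251%. Differences spread more widely in the 76 bp batch, with an SD of 0.374 over genes against 0.230 in the 50 bp batch, where wild type is a mean of 2 libraries.

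**Figure D1:**
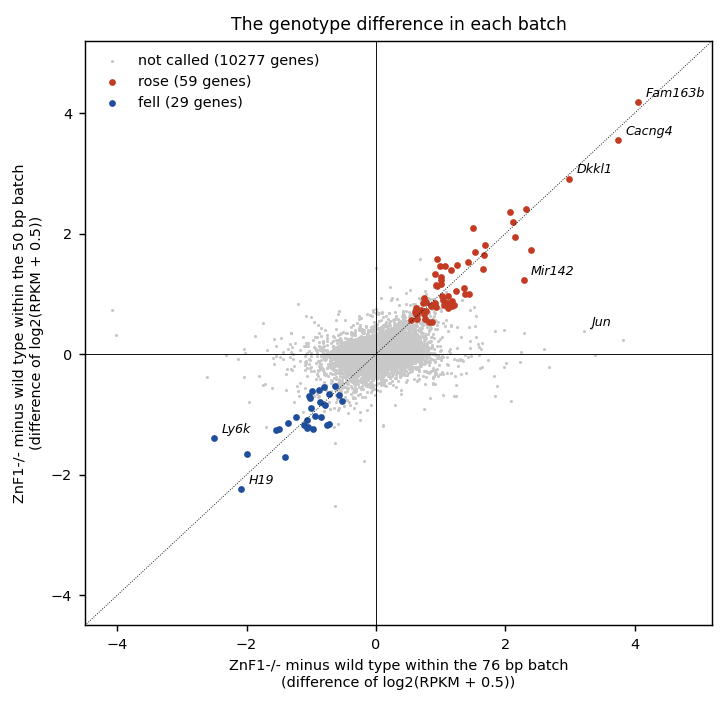
Each point is 1 of the 10365 tested genes, placed by the difference of log2(RPKM + 0.5) between ZnF1-/- and wild type within the 76 bp batch (horizontal) and within the 50 bp batch (vertical, against the mean of wild type 2A and 2B); red points rose, blue points fell, grey points did not pass. The 59 rises lie in the upper right and the 29 falls in the lower left corner, while Jun is displaced along the 76 bp axis.

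A set of 12 genes stayed below an adjusted p of 0.05 whichever of the 7 libraries was left out: the rises Fam163b, Cacng4, Dkkl1, Crispld2, Ctnnd1, Sema4g, Syt14, Wscd1 and Sbf2 and the falls H19, Ccdc153 and Gbp8. Of the other 76 genes, 3 lost the call in 1 of these 7 fits, 6 in 2, 12 in 3, 28 in 4 and 27 in 5, always in fits without a wild type or ZnF1-/- library: 36 of the 88 kept it without wild type replicate 1, 54 without 2A, 16 without 2B, 22 without ZnF1-/- replicate 1 and 14 without ZnF1-/- replicate 2.

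Fam163b had the highest log2 fold change in the comparison. It was at 2.03, 1.85 and 2.21 RPKM in wild type replicates 1, 2A and 2B and at 41.63 and 45.28 RPKM in ZnF1-/- replicates 1 and 2. The mutant libraries lay close together and far above every wild type library, a log2 difference of 4.12 ± 0.12 (SE, adjusted p = 5.2e-06). The gene lies on chr2:26965900-26998011, minus strand, mm9. It was called in every alternative processing that was planned, as was Syt14.

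Among genes of ion channels and membrane traffic, Cacng4, which encodes an auxiliary subunit of voltage-gated calcium channels and AMPA receptors, was at 0.30, 0.97 and 1.65 RPKM in wild type and 10.22 and 20.32 RPKM in ZnF1-/- (3.62 ± 0.18, adjusted p = 0.000166). The 50 bp libraries were the higher ones in both groups, and the groups stayed apart. Without the replicate block Cacng4 did not pass (limma, adjusted p = 0.0985). Syt14, one of the synaptotagmins, proteins of vesicle traffic, was at 1.29, 1.38 and 1.48 RPKM in wild type and 7.44 and 6.91 RPKM in ZnF1-/- (2.03 ± 0.12, adjusted p = 0.000383). Its libraries lay close together within each group. Sbf2, a myotubularin-related protein of endosomal membrane traffic, was at 1.46, 1.85 and 1.69 RPKM in wild type and 5.17 and 6.87 RPKM in ZnF1-/- (1.63 ± 0.13, adjusted p = 0.00195). It did not pass without the block (limma, adjusted p = 0.0567). In mm9 Cacng4 lies at chr11:107593671-107655871, Syt14 at chr1:194723404-194861911 and Sbf2 at chr7:117451527-117758436, all on the minus strand. Of 6 tested calcium channel subunits Cacng4 alone passed, with a median over the 6 of 0.15, and of 8 tested synaptotagmins Syt14 alone passed, with a median of 0.06. Over all tested genes 0.569% rose. The family lists were chosen with earlier results of these data known, so 1 call describes the gene and not its family.

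Among genes of adhesion and guidance, Ctnnd1 encodes p120 catenin, which binds the cytoplasmic tail of cadherins and keeps them at the cell surface. It was at 0.77, 0.58 and 0.53 RPKM in wild type and 4.82 and 4.88 RPKM in ZnF1-/-, with no overlap between the groups (2.25 ± 0.16, adjusted p = 0.00129). Sema4g, a transmembrane semaphorin, was at 2.67, 3.15 and 2.66 RPKM in wild type and 13.32 and 15.04 RPKM in ZnF1-/- (2.13 ± 0.18, adjusted p = 0.00218). Ctnnd1 lies at chr2:84440228-84490922, minus strand, and Sema4g at chr19:45063591-45077887, plus strand (mm9). Of 6 tested catenins and cadherins Ctnnd1 was the only one to pass, and the median over the 6 was 0.32. Ctnna1, alpha-catenin, was at 6.75, 9.41 and 9.88 RPKM in wild type and 9.29 and 14.30 RPKM in ZnF1-/-, an increase within each batch that missed the threshold (0.50 ± 0.10, adjusted p = 0.0681). Ctnnb1, beta-catenin, was at 83.42 to 102.77 RPKM in wild type and 73.02 and 100.79 RPKM in ZnF1-/-, and did not pass (adjusted p = 0.918). Of 10 tested semaphorins, plexins and neuropilins Sema4g alone passed, with a median of -0.01. For both of these lists the share of rises over all tested genes was 0.569%.

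Of the secreted proteins, Dkkl1, a relative of the dickkopf Wnt inhibitors, was at 0.49, 1.35 and 0.86 RPKM in wild type and 7.35 and 11.42 RPKM in ZnF1-/- (2.89 ± 0.26, adjusted p = 0.00293). Crispld2, a secreted protein of the cysteine-rich CAP family, was at 0.87, 1.23 and 0.84 RPKM in wild type and 6.36 and 7.54 RPKM in ZnF1-/- (2.38 ± 0.17, adjusted p = 0.00135). Both had mutant libraries several times above the highest wild type library. Dkkl1 was the only one of 15 tested genes on the list of Wnt signalling to pass, where 0.569% of all tested genes rose, and the median of that list was 0.05. Wscd1, whose product carries a WSC domain, was at 1.90, 3.92 and 4.18 RPKM in wild type and 12.10 and 14.57 RPKM in ZnF1-/- (2.00 ± 0.16, adjusted p = 0.00195), with the lowest value in each group in the 76 bp library. It did not pass without the replicate block (limma, adjusted p = 0.139). Dkkl1 lies at chr7:52462895-52467253 on the minus strand, Crispld2 at chr8:122516338-122576693 and Wscd1 at chr11:71563422-71603149 on the plus strand (mm9).

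The 3 falls of this set were H19, Ccdc153 and Gbp8. Without the replicate block none of them passed (limma, adjusted p = 0.0567, 0.0567 and 0.4455). H19, an imprinted long noncoding RNA expressed from the maternal allele, was at 5.80, 8.97 and 10.23 RPKM in wild type and 0.99 and 1.64 RPKM in ZnF1-/- (-2.21 ± 0.21, adjusted p = 0.00386). The other 6 tested imprinted genes did not pass, and the median over the 7 was -0.04, where 0.28% of all tested genes fell. Ccdc153, a coiled-coil protein, was at 6.05, 9.40 and 7.79 RPKM in wild type and 1.97 and 2.29 RPKM in ZnF1-/- (-1.58 ± 0.13, adjusted p = 0.00218). Gbp8, a guanylate-binding protein of the interferon-inducible GTPases, was at 36.13, 24.86 and 20.87 RPKM in wild type and 12.08 and 9.21 RPKM in ZnF1-/- (-1.39 ± 0.12, adjusted p = 0.00231). H19 lies at chr7:149761434-149764048 and Gbp8 at chr5:105443172-105482580 on the minus strand, and Ccdc153 at chr9:44048760-44055389 on the plus strand (mm9). In all 3 genes the highest mutant library was below the lowest wild type library. Gbp8 has close paralogues, and how reads shared between copies were counted is not given in the sources used here.

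**Figure D2:**
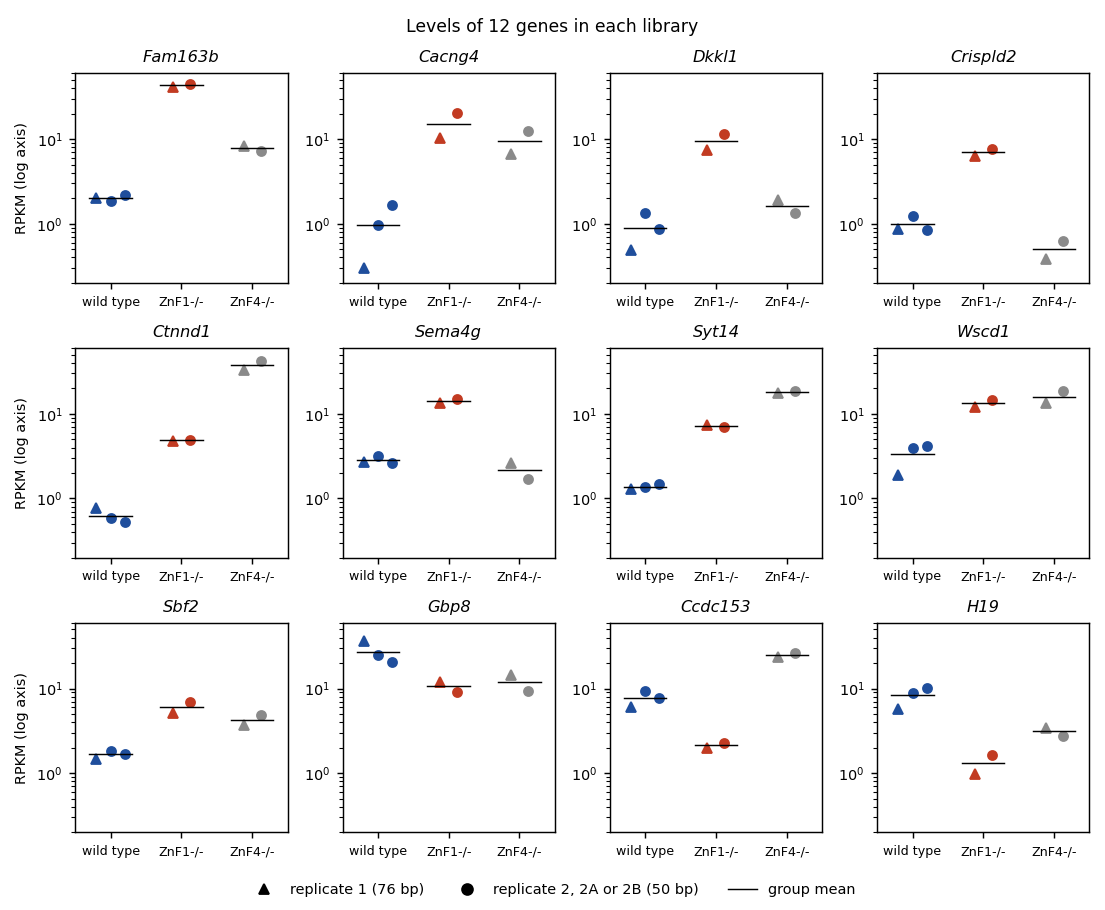
RPKM on a log axis for the 12 genes called whichever library was left out, in wild type, ZnF1-/- and ZnF4-/-; triangles are replicate 1 (76 bp), circles the 50 bp libraries, and lines group means. In each panel the 2 ZnF1-/- points lie clear of the 3 wild type points, from 2.21 to 41.63 RPKM for Fam163b, while the ZnF4-/- points fall on either side of them.

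The sequences upstream of some of these genes are printed because the mutated finger belongs to the part of Ikaros that reads GGGAA. They are the 250 bases before the annotated start, 5′ to 3′ on the strand of the gene, from the RefSeq promoter table of mouse build GRCm38.p6, a later build than that of the expression files, with matches to GGGAA or its reverse complement TTCCC in capitals. Shown are a pair of rises with no match (Fam163b, Ctnnd1), a pair with 2 matches (Syt14, Zfp111), and 3 falls with 3, 1 and 0 matches (Ralb, Cd79a, Ccdc153); they were chosen after their values were seen.
Fam163b, chr2:27142478-27142727, minus strand: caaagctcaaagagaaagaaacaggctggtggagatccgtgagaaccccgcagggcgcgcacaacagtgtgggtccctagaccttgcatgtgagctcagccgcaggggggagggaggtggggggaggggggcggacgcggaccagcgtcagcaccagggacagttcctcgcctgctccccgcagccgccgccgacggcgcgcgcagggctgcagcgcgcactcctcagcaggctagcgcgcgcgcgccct
Ctnnd1, chr2:84658978-84659227, minus strand: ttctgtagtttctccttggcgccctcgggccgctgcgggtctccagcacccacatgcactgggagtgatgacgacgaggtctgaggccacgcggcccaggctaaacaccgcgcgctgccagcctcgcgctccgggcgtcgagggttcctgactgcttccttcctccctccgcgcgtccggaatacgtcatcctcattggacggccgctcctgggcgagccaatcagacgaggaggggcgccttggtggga
Syt14, chr1:193035776-193036025, minus strand: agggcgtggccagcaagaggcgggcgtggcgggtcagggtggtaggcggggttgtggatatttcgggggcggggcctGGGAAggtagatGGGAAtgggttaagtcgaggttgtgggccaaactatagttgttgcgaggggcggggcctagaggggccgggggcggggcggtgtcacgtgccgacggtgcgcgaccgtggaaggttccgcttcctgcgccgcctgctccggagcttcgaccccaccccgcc
Zfp111, chr7:24208150-24208399, minus strand: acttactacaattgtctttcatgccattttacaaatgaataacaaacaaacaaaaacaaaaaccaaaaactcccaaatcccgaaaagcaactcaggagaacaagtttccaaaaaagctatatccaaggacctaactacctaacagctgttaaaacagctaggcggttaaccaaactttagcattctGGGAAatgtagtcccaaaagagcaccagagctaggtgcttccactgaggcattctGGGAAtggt
Ralb, chr1:119504783-119505032, minus strand: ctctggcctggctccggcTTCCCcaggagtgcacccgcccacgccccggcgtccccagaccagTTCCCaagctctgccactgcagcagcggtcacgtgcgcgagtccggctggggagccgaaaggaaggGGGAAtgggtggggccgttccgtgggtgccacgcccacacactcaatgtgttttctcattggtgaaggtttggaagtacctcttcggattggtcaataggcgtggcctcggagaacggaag
Cd79a, chr7:24897247-24897496, plus strand: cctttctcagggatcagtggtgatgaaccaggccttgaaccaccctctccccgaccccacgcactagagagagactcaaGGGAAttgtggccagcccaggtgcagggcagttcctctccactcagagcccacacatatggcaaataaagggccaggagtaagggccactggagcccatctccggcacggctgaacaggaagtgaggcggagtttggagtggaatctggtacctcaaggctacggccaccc
Ccdc153, chr9:44240427-44240676, plus strand: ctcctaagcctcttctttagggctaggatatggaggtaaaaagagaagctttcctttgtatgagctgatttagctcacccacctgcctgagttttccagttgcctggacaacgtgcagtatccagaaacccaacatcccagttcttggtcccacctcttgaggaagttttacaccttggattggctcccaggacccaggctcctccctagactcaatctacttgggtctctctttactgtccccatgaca
Promoters were found by symbol for 7304 tested genes, 43 of the rises and 17 of the falls. GGGAA on either strand was present in 57.8% of the 7304 windows, in 26 of 43 rises (60.5%) and in 9 of 17 falls (52.9%). The longer form TGGGAA, which contains GGGAA, was present in 20% of all windows, in 13 of 43 rises (30.2%) and in 4 of 17 falls (23.5%). Both copies in Syt14 and both in Zfp111 are of the longer form. A match describes the letters of a window and is no evidence of binding, and binding by Ikaros was not measured here.

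Among the next rises, Peli2, an E3 ubiquitin ligase that acts with Toll-like and IL-1 receptor kinases, was at 0.72, 0.78 and 0.57 RPKM in wild type and 3.43 and 3.63 RPKM in ZnF1-/- (1.76 ± 0.16, adjusted p = 0.00293). No other of the 15 tested genes of that pathway passed, and 0.569% of all tested genes rose. Plekhg3, a guanine nucleotide exchange factor, was at 1.95, 2.35 and 2.08 RPKM and 6.05 and 7.34 RPKM (1.48 ± 0.13, adjusted p = 0.00293). Slfn9, a Schlafen gene with close paralogues, was at 3.06, 2.02 and 1.98 RPKM and 7.46 and 6.11 RPKM (1.30 ± 0.12, adjusted p = 0.00293). In all 3 the groups were well separated, and of the fits with 1 library left out, the one without ZnF1-/- replicate 2 lost the calls (adjusted p = 0.0536, 0.0554 and 0.0572). With no filter on low values none of the 3 passed (adjusted p = 0.0616 for each), and Slfn9 did not pass without the block (0.139).

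A pair of myosins was among the 20 highest log2 fold changes. Myh10, nonmuscle myosin IIB, was at 1.41, 1.35 and 1.15 RPKM in wild type and 3.30 and 4.29 RPKM in ZnF1-/- (1.26 ± 0.15, adjusted p = 0.0127). Myo6, the myosin that moves toward the minus end of actin filaments, was at 0.81, 0.69 and 0.99 RPKM and 2.25 and 3.17 RPKM (1.31 ± 0.19, adjusted p = 0.0266). The mutant libraries were above every wild type library in both. Myh10 lost the call without wild type 2B or ZnF1-/- replicate 2 (adjusted p up to 0.152) and Myo6 without 2A, 2B or either mutant library (up to 0.240).

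Other genes among the 20 with the highest log2 fold change had smaller margins or were at low level. Car2, carbonic anhydrase 2, was at 3.34, 4.4 and 4.5 RPKM in wild type and 8.64 and 13.31 RPKM in ZnF1-/- (1.36 ± 0.14, adjusted p = 0.00523). Echdc2, a relative of enoyl-CoA hydratases, had a log2 difference of 1.81 ± 0.26, the zinc finger gene Zfp111 one of 1.66 ± 0.17 and the RING finger gene Rnf122 one of 1.52 ± 0.15. Zfp111 was at 0.49, 0.28 and 0.25 RPKM in wild type and 2.65 and 1.88 RPKM in ZnF1-/-. Sertad4 was at 0.25, 0.73 and 0.54 RPKM in wild type and 0.94 and 2.89 RPKM in ZnF1-/-, so its groups stayed apart while the mutant libraries differed widely from each other (1.28 ± 0.22, adjusted p = 0.0476). Mir142, the precursor of a blood cell microRNA, is a row of only 65 bases, and its RPKM differed widely between the batches: 19.11 in wild type against 95.28 in ZnF1-/- in the 76 bp libraries, and 5.66 and 4.28 against 12.25 in the 50 bp libraries (1.70 ± 0.23, adjusted p = 0.0186). The calls of Zfp111 and Rnf122 were lost without wild type 2B or either mutant library (adjusted p up to 0.0676 and 0.0730), and that of Car2 without 2B or ZnF1-/- replicate 2 (up to 0.0831). Echdc2 and Mir142 lost theirs without wild type 1 or 2B, Echdc2 also without ZnF1-/- replicate 2 (up to 0.210) and Mir142 without ZnF1-/- replicate 1 (up to 0.151), and Sertad4 kept its call without ZnF1-/- replicate 1 and lost it without any other wild type or ZnF1-/- library (up to 0.376).

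The deepest falls after H19 included membrane-anchored and signalling proteins. Ly6k, a member of the Ly6 family of surface proteins, was at 15.98, 8.96 and 13.06 RPKM in wild type and 2.41 and 3.81 RPKM in ZnF1-/- (-1.84 ± 0.27, adjusted p = 0.0252), and its differences of -2.50 in the 76 bp batch and -1.39 in the 50 bp batch were the farthest apart of all 88 genes. Ccdc88a, girdin, an actin-binding protein of cell migration, was at 2.41, 1.30 and 1.54 RPKM and 0.23 and 0.11 RPKM (-1.78 ± 0.18, adjusted p = 0.00523). Plekhf1, an endosomal protein, was at 2.97, 4.24 and 3.67 RPKM and 0.73 and 1.37 RPKM (-1.37 ± 0.14, adjusted p = 0.00545). No mutant library of these genes reached the lowest wild type library. Ralb, a small GTPase of the Ras superfamily, was at 8.95, 13.06 and 10.28 RPKM in wild type and 4.01 and 4.70 RPKM in ZnF1-/- (-1.16 ± 0.13, adjusted p = 0.010). The collagen-modifying lysyl hydroxylase Plod2 (-1.21 ± 0.16), the Nogo receptor relative Rtn4rl1 (-1.15 ± 0.12), Tmem35 (-1.11 ± 0.16), Ly6a, which encodes Sca-1 (-1.05 ± 0.16), and the fucosyltransferase Fut10 (-0.98 ± 0.15) also fell. The calls of Ly6k, Ralb and Rtn4rl1 were lost without wild type 2B or either mutant library (adjusted p up to 0.195, 0.114 and 0.0849), those of Plod2 and Ly6a also without wild type 1 (up to 0.154 and 0.246), and those of Tmem35 and Fut10 without any of the 5 libraries (up to 0.241 for both). Ccdc88a lost its call without 2B or ZnF1-/- replicate 2 (up to 0.0626) and Plekhf1 without 2B or ZnF1-/- replicate 1 (up to 0.0666).

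Most listed genes of B cells were at a lower level in ZnF1-/-. Of the 12 genes on the B cell list, 9 were lower in both mutant libraries than in all 3 wild type libraries and 1, Cd79b, was higher, while 7.79% and 7.54% of all 16734 listed genes did so. The list was chosen with earlier results of these data known, so these counts describe it and are no test of it. Only 2 of the 12 passed the filter on low values. Cd79a, a signalling chain of the B cell receptor, was at 1.40, 1.74 and 1.62 RPKM in wild type and 0.38 and 0.47 RPKM in ZnF1-/- (-1.15 ± 0.16, adjusted p = 0.0217). Cd79b, the other chain, was at 15.03, 19.43 and 16.87 RPKM in wild type and 25.36 and 35.01 RPKM in ZnF1-/- (0.84 ± 0.11, adjusted p = 0.0184). The chains of this heterodimer thus moved in opposite directions, and Cd79b was at the far higher level in every library. The Cd79a call was lost without any 1 of the 5 libraries (adjusted p up to 0.168) and the Cd79b call without any but 2A (up to 0.219).

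The B cell genes under the filter were at low level in every library. Ms4a1, which encodes CD20, was at 1.00, 0.95 and 1.31 RPKM in wild type and 0.17 and 0.13 RPKM in ZnF1-/-. Cd22 was at 0.46, 0.64 and 0.51 RPKM and 0.15 and 0.09 RPKM. Neither passed in the fit of all 16734 genes with no filter (adjusted p = 0.479 for Ms4a1 and 0.144 for Cd22), a fit that called 4 genes, 0.0239% of those listed. In RNA from whole thymus, fewer cells of a type and less RNA per cell cannot be told apart.

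Genes of gamma-delta and innate-like lymphocytes, small populations of the thymus with preset effector functions, included 3 falls and no rise. Of 12 tested members of 23 on the list, Blk, Il17re and Sox13 fell, and the median was -0.36, against 0.28% of falls and a median of 0.01 over all tested genes. Blk, a Src-family kinase of B cells and IL-17-producing gamma-delta T cells, was at 1.68, 2.13 and 1.60 RPKM in wild type and 0.43 and 0.64 RPKM in ZnF1-/- (-1.14 ± 0.19, adjusted p = 0.0406). Il17re, a receptor subunit for IL-17C, was at 3.52, 4.73 and 3.97 RPKM and 1.89 and 1.64 RPKM (-0.999 ± 0.150, adjusted p = 0.0266). Sox13, an SRY-related regulator of the gamma-delta lineage, was at 2.91, 4.12 and 4.26 RPKM and 1.40 and 1.79 RPKM (-0.97 ± 0.14, adjusted p = 0.0246). In all 3 the mutant libraries were below every wild type library, and the Blk call was lost without any 1 of the 5 libraries and the others without 2A, 2B or either mutant library (adjusted p up to 0.393, 0.255 and 0.187 in the order given). Of the whole list of 23, 12 genes had both mutant libraries below wild type and 1, Icos, had both above. Of all 16734 listed genes, 7.79% had both below and 7.54% had both above. On this list 6 of the 23 genes were under 1 RPKM in all 5 libraries. Members and lists were chosen with earlier results of these data known, so these counts describe the list and are no test of it.

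Zbtb16, which encodes PLZF, the transcription factor of natural killer T cells, was under the filter at 0.54, 0.74 and 0.57 RPKM in wild type and 0.08 and 0.11 RPKM in ZnF1-/- (adjusted p = 0.0775 in the fit with no filter). Ccr6, a chemokine receptor of IL-17-producing cells, was at 1.25, 1.16 and 1.18 RPKM and 0.38 and 0.67 RPKM. Both were below wild type in each mutant library. Nkg7, a granule protein of cytotoxic cells, was at 15.12, 16.07 and 12.26 RPKM in wild type and 10.05 and 10.49 RPKM in ZnF1-/- and did not pass (-0.46 ± 0.13, adjusted p = 0.232). Gzma, granzyme A, overlapped between the groups (31.56, 31.14 and 22.30 RPKM against 22.24 and 24.66 RPKM, adjusted p = 0.722).

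**Figure D3:**
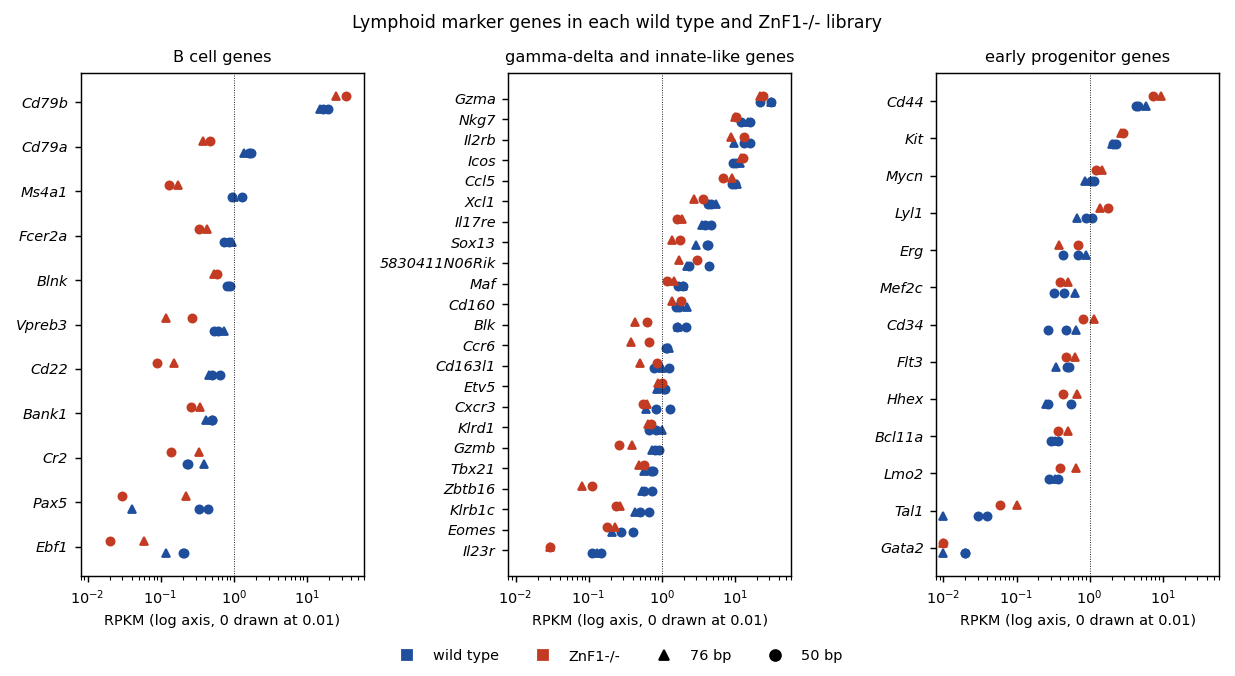
RPKM on a log axis (0 drawn at 0.01) of listed B cell (1 gene not drawn), gamma-delta and innate-like, and early progenitor genes in the 3 wild type (blue) and 2 ZnF1-/- (red) libraries; triangles are 76 bp and circles 50 bp libraries, and the dotted line marks 1 RPKM. Red points lie left of all blue points for most B cell genes and for 12 of 23 gamma-delta and innate-like genes, and right of them for 7 of 13 early progenitor genes. Of all 16734 listed genes, 7.79% were lower and 7.54% higher in this way. The gene lists were chosen with earlier results of these data known.

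Of 4 tested genes of early thymic progenitors, out of 13 in the table, 1 rose: Cd44, an adhesion receptor high on the most immature thymocytes and on memory T cells, was at 5.95, 4.62 and 4.33 RPKM in wild type and 9.44 and 7.41 RPKM in ZnF1-/- (0.66 ± 0.11, adjusted p = 0.0401). The median of the 4 was 0.47, and 0.569% of all tested genes rose. This list was chosen with earlier results of these data known, so its counts only describe it. Of the 13, 7 had both mutant libraries above all wild type libraries and none had both below, while the other 6 overlapped between the groups. Of all 16734 listed genes, 7.54% had both above and 7.79% had both below. Kit, the stem cell factor receptor, was at 2.02, 2.31 and 2.08 RPKM in wild type and 2.66 and 2.85 RPKM in ZnF1-/- (adjusted p = 0.503), and Lyl1, a progenitor transcription factor, at 0.68, 1.07 and 0.89 RPKM and 1.38 and 1.78 RPKM (adjusted p = 0.403). These mutant values were above wild type without passing the test, and 8 of the 13 genes were under 1 RPKM in all 5 libraries. The Cd44 call was lost without any 1 of the wild type or ZnF1-/- libraries (adjusted p up to 0.404).

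Of 20 tested genes of mature single-positive thymocytes and their exit 1 fell and none rose, against 0.28% of falls and 0.569% of rises over all tested genes. The median of the list was -0.18, and its members were chosen with earlier results of these data known. Ms4a6b, a tetraspanning membrane protein of a family with close copies, was at 25.01, 20.72 and 20.72 RPKM in wild type and 11.93 and 12.61 RPKM in ZnF1-/- (-0.82 ± 0.12, adjusted p = 0.0266, up to 0.322 where the call was lost, without wild type 1, 2B or either mutant library). Itgae, the integrin CD103, was at 5.02, 6.53 and 5.67 RPKM and 2.92 and 3.79 RPKM and missed the threshold (adjusted p = 0.0657). S1pr1, the sphingosine phosphate receptor needed for exit, was at 9.67, 11.87 and 11.80 RPKM and 7.48 and 9.29 RPKM (adjusted p = 0.207). Both lay below wild type in each mutant library, as did 7 of the 22 genes of the list, while 1 lay above. Of all 16734 listed genes, 7.79% lay below in this way and 7.54% above. Ccr7 was at 21.92, 33.19 and 33.43 RPKM in wild type and 23.87 and 30.49 RPKM in ZnF1-/-, with no separation (adjusted p = 0.988).

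Double-positive cells make up most of a thymus, and none of the 9 genes of their list passed, with a median of -0.06. Cd4 was at 401.34, 462.45 and 499.55 RPKM in wild type and 396.26 and 432.71 RPKM in ZnF1-/-, a log2 difference of -0.08 ± 0.12. Rag1, a recombinase of antigen receptor genes, was at 874.99, 965.21 and 925.96 RPKM and 821.86 and 865.28 RPKM (-0.10 ± 0.13). Dntt, terminal transferase, was at 483.73, 602.66 and 571.82 RPKM and 654.93 and 706.89 RPKM, above wild type in each mutant library without passing (0.34 ± 0.12, adjusted p = 0.380). None passed among 26 tested genes of T cell receptor signalling, 19 T lineage transcription factors, 10 of V(D)J recombination, 9 of the Notch pathway, 12 of regulatory T cells or 26 of mitosis and DNA replication, whose medians ran from -0.15 to 0.11. At an unadjusted p under 0.05 (limma), which 511 tested genes reached as higher and 374 as lower, the higher and lower counts were 1 and 0 for the double-positive list, 1 and 0 for T cell receptor signalling, 1 and 1 for V(D)J recombination, 1 and 3 for regulatory T cells, 0 and 1 for mitosis and DNA replication, and 0 for Notch and the T lineage factors. Of 12 tested BCL-2 family and 3 tested MAGE genes none passed, with 1 higher BCL-2 gene at an unadjusted p under 0.05. These levels check the tissue label: thymocyte genes were high in all 5 libraries.

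Ikzf1 itself was at 141.71, 175.43 and 169.51 RPKM in wild type and 183.02 and 194.30 RPKM in ZnF1-/- (0.25 ± 0.10, adjusted p = 0.527). The value is a sum over the exons of the gene, so it does not show the mutation and is no check of the genotype labels. The relatives Ikzf3, Aiolos, and Ikzf2, Helios, did not pass (-0.06 ± 0.09 and -0.19 ± 0.13), nor did any of 13 tested NuRD subunits (limma), of which 1 was higher at an unadjusted p under 0.05. Of the 87 genes among the 88 that were located in the GENCODE annotation of mm9, none lay within 10000000 bases of Ikzf1 (chr11:11585006-11672929), where 76 genes were tested and the smallest adjusted p was 0.0880.

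Markers of other cell types that the suspensions could hold showed no call: 0 of 11 tested macrophage and dendritic cell genes passed, 0 of 4 of thymic epithelium, 0 of 2 of fibroblasts and endothelium and 0 of 5 of red cells. Summed over all listed members, tested or not, macrophage and dendritic cell genes were at 156 to 196 RPKM in wild type and 138 to 173 RPKM in ZnF1-/-. In the same order, thymic epithelium was at 18.4 to 24.4 and 14.2 to 20.2 RPKM. Fibroblasts and endothelium were at 31.1 to 44.0 and 37.5 to 42.8 RPKM, and red cells at 22.8 to 58.8 and 20.3 to 55.7 RPKM. These summed ranges overlapped between genotypes for all 4, but each pools 76 bp and 50 bp libraries and so does not compare the genotypes within a batch. Most of the fibroblast and endothelium sum was Pecam1, at 29.35, 41.56 and 36.99 RPKM in wild type and 34.31 and 38.6 RPKM in ZnF1-/-. Pdgfrb, the other tested member of that list, was at 1.13, 1.68 and 1.06 RPKM in wild type and 2.3 and 3.17 RPKM in ZnF1-/-. At an unadjusted p under 0.05 (limma) 1 macrophage and dendritic cell gene was lower and 1 fibroblast and endothelium gene was higher. Foxn1, the defining factor of thymic epithelium, was between 0 and 0.02 RPKM in all 5 libraries. The immediate-early and heat-shock list, which holds Fos and Jun, had a median of 0.23 over 14 tested genes and no call, with 3 higher and 3 lower at an unadjusted p under 0.05 (limma). Among 20 tested interferon-stimulated genes 1 rose, where 0.569% of all tested genes did. It was Bst2, tetherin, at 18.28, 35.86 and 35.09 RPKM in wild type and 32.64 and 51.87 RPKM in ZnF1-/- (0.66 ± 0.10, adjusted p = 0.0266, a call lost without any 1 of the 5 libraries).

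**Figure D4:**
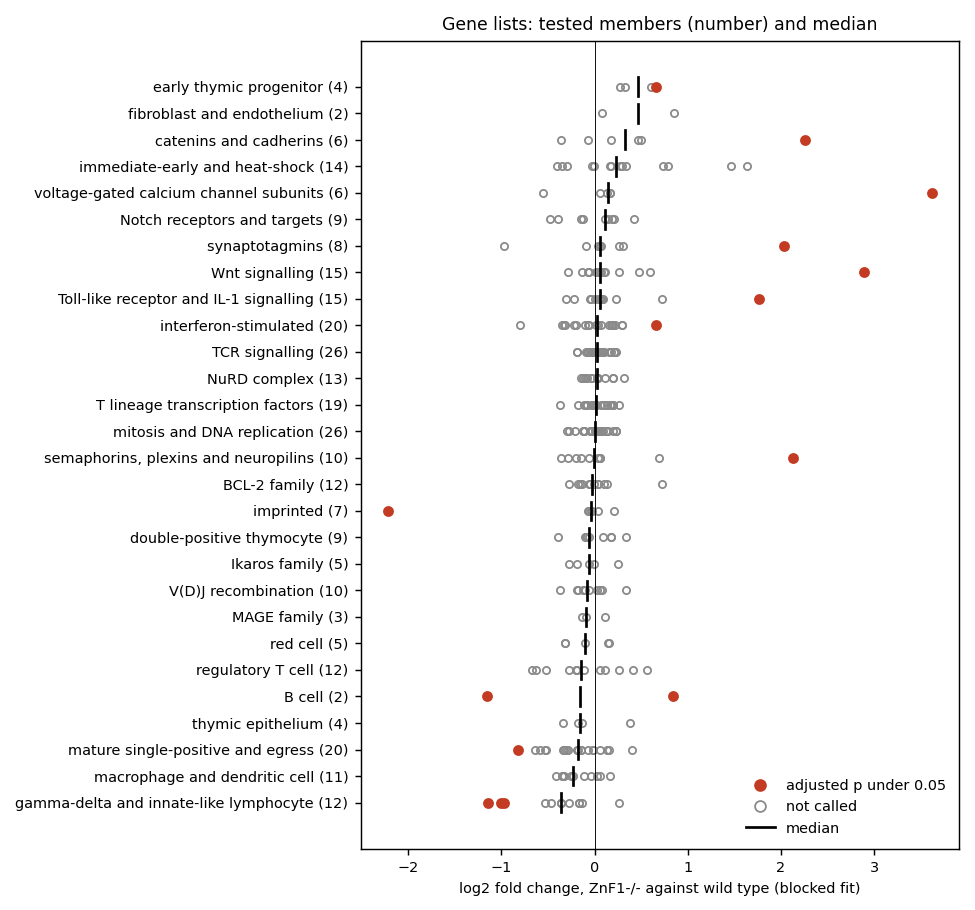
Log2 fold change of ZnF1-/- against wild type for each tested member of 28 gene lists, from the fit with the replicate block; the number of tested genes stands after each name, filled points passed an adjusted p of 0.05 and black bars are medians. Most lists centre near 0 and hold at most 1 gene that passed, while the gamma-delta and innate-like list has a median of -0.36 and 3 falls. The B cell list holds 1 rise and 1 fall. Medians farther from 0 were those of early progenitors (0.47, 4 tested genes) and of fibroblasts and endothelium (0.46, 2 tested genes). Members and lists were chosen with earlier results of these data known.

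Some of the changed genes were neighbours. Tmem176a and Tmem176b, paired genes of related membrane proteins whose bodies lie 109 bases apart on chromosome 6, both fell, by 0.66 and 0.83 on the log2 scale. The Tmem176a call was lost without any 1 of the 5 libraries (adjusted p up to 0.422) and the Tmem176b call without wild type 2B or either mutant library (up to 0.184). Sertad4 and Syt14, 41458 bases apart on chromosome 1, both rose, and Ly6k and Ly6a, 194892 bases apart on chromosome 15, both fell. Rnf122 rose and Fut10 fell 55849 bases apart on chromosome 8. Other neighbouring pairs were Tjp3 with Nfic and Wscd1 with Fam64a, in which both genes rose. In Sox13 with Atp2b4, Zfp111 with Cd79a, and Ccdc153 with Scn4b, 1 gene rose and 1 fell. The neighbours were picked out after their values were seen, and the share of such pairs among all tested genes was not computed. Exons of 13 of the located genes overlap another gene, 7 of them a coding gene, and as the strand of the reads is not stated, reads of overlapping genes cannot be assigned.

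The same genes were read in the ZnF4-/- libraries to see where the ZnF1-/- values differ from those of the other finger mutant. ZnF4-/- and ZnF1-/- differed at 661 of the tested genes (6.38%, limma with the block). Among the 59 genes that rose in ZnF1-/-, ZnF4-/- was lower than ZnF1-/- at 27, higher at 7 and not called at 25. Among the 29 that fell, it was higher at 21, lower at none and not called at 8. The genes were selected on the same ZnF1-/- libraries that enter this contrast, so a return toward wild type is favoured by the choice.

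Fam163b, Dkkl1, Crispld2 and Sema4g were highest in ZnF1-/-. Fam163b was at 8.24 and 7.28 RPKM in ZnF4-/- against 41.63 and 45.28 RPKM in ZnF1-/- (adjusted p of the difference 0.000121). Crispld2 was at 0.38 and 0.62 RPKM, Sema4g at 2.64 and 1.68 RPKM and Dkkl1 at 1.92 and 1.34 RPKM in ZnF4-/- (adjusted p = 0.000191, 0.000327 and 0.00323). These last 3 stood far nearer to wild type in ZnF4-/- than in ZnF1-/-. The reverse order held for Ctnnd1, at 33.11 and 42.44 RPKM in ZnF4-/- against 4.82 and 4.88 RPKM in ZnF1-/- (adjusted p = 0.000164), and for Syt14, at 17.56 and 18.48 RPKM against 7.44 and 6.91 RPKM (adjusted p = 0.000910). Cacng4, Wscd1 and Sbf2 were high in both mutants, and the difference between mutants did not pass (adjusted p = 0.109, 0.498 and 0.118). For Wscd1 the ZnF4-/- libraries were at 13.50 and 18.49 RPKM.

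Several genes lay on opposite sides of wild type in the mutants. Ccdc153 was at 23.62 and 26.64 RPKM in ZnF4-/-, above wild type, and at 1.97 and 2.29 RPKM in ZnF1-/-, below it (adjusted p of the difference between mutants 3.0e-05). Ccdc88a was at 6.73 and 6.71 RPKM in ZnF4-/- and 0.23 and 0.11 RPKM in ZnF1-/- (adjusted p = 0.000160). Tmem176b was at 74.26 and 93.66 RPKM in ZnF4-/-, 10.06, 12.24 and 14.26 RPKM in wild type and 5.28 and 7.43 RPKM in ZnF1-/- (adjusted p = 8.08e-06). Cd79b went the other way, at 10.64 and 12.04 RPKM in ZnF4-/-, below wild type, and 25.36 and 35.01 RPKM in ZnF1-/- (adjusted p = 0.000485). Itga4, the integrin alpha 4 chain of lymphocyte homing, was at 29.67, 21.32 and 18.92 RPKM in wild type, 43.43 and 30.10 RPKM in ZnF1-/- and 15.60 and 10.92 RPKM in ZnF4-/-, with the order ZnF1-/-, wild type, ZnF4-/- in both batches (adjusted p between mutants 0.000301); exons of Itga4 overlap another coding gene. The rise of Itga4 in ZnF1-/- lost its call without any 1 of the 5 libraries (adjusted p up to 0.458). Tmem176b and Itga4 were named after their values were seen. Gbp8, Ly6k, Rtn4rl1 and Ralb were low in both mutants, with no call between them (adjusted p = 0.659, 0.540, 0.919 and 0.492). H19 was at 3.45 and 2.78 RPKM in ZnF4-/-, between wild type and ZnF1-/- (adjusted p between mutants 0.0401).

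At the filter on low values, the called genes just inside were Lrrn4, Sertad4 and Zfp111, with means over the 5 libraries of 1.04, 1.07 and 1.11 RPKM. Maged1, a MAGE family gene with a mean of 0.968 RPKM, was just outside: it was at 1.24, 1.59 and 1.65 RPKM in wild type, 0.17 and 0.19 RPKM in ZnF1-/- and 13.03 and 14.69 RPKM in ZnF4-/- (adjusted p = 0.0616 for ZnF1-/- against wild type in the fit with no filter).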

How the data were processed

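The series holds RNA-seq of whole thymus from 4-week-old mice, 7 libraries: 3 wild type, 2 ZnF1-/- and 2 ZnF4-/-. Per the labels' protocols, RNA was extracted from strained suspensions with TRI Reagent and sequenced as 76 bp (replicate 1) or 50 bp single-end reads. The deposited table gives RPKM per RefSeq gene (mm9), which the authors computed from exonic reads with SeqMonk, 1 transcript kept per gene, per the series' design text; the submitters' processing notes also name TopHat and bedtools, with versions not given in the sources used here. Read totals are not given, so the depth is unknown and no counting interval is given.

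From these values log2(RPKM + 0.5) was computed and limma 3.58.1 (R 4.3.3) was fitted with genotype and the replicate number as a block (2A and 2B share number 2), over all 7 libraries, with eBayes and a trend. Tests were two-sided, adjusted by Benjamini-Hochberg over the 10365 tested genes, with a threshold of 0.05. The residual degrees of freedom were 3 and the prior added 5.06. The block follows the labels, in which the replicate number marks the read length, and same-numbered libraries deviated together from their group means (Pearson r of 0.49 to 0.74 over 8 pairs, across genes). On simulated data for this comparison over 10365 genes the blocked fit called 98% of 1-unit and 100% of 2-unit log2 changes, with 21 false calls. The fit without the block called 26% and 87%, with 0 false calls. The simulation gave each gene the same batch shift in every genotype and noise sized from the blocked fit, which favours the block. It therefore cannot decide which fit is better for the real data.

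Genes were named by rule: Ikzf1, Xist and Ddx3y, the 20 highest and 15 lowest log2 fold changes past the threshold, and per list its called members and up to 3 others with the smallest p, with defining markers for cell type lists. Members and lists were chosen with earlier results of these data known. Some further genes with a larger p were added for background, and a few items that the rule would name are not reported here. Alternatives were the fit without the block, pseudocounts of 0.1 and 1, other filters, the 5 libraries alone, 2A and 2B averaged, median scaling, quantile normalization and each library left out.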

Additional observations from a re-analysis of the deposited data

How the results depend on the processing

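The count of 88 genes changed in ZnF1-/- against wild type fell to 8 without the replicate block and to 4 with no filter on low values, and to 26 with wild type 2A and 2B averaged. It rose to 213 when the 5 wild type and ZnF1-/- libraries were fitted alone and to 137 with median scaling. In a fit added after seeing the data, of the 5 libraries alone with no replicate block, 5 genes passed. Leaving out 1 library at a time gave 17 to 218 genes. Pseudocounts of 0.1 and 1 RPKM gave 86 and 89, the filter over all 7 libraries 92, the filter at 3 RPKM 59 and quantile normalization 122. All calls of the fit without the block were among the 88, all 88 were called with the 5 libraries alone, and none of the 88 changed sign in any of these fits. Fam163b and Syt14 passed in all 17 alternatives other than the added one and 13 genes in at least 15. The 661 genes that differed between ZnF4-/- and ZnF1-/- became 157 without the block, 1012 with no filter and 393 with the filter at 3 RPKM, and 232 to 818 with 1 library left out. The cause of these shifts was not tested, apart from the samples and genes each alternative leaves out by its construction. With unknown depth and 2 mutant libraries, 1 in each batch, a gene that did not pass is not shown to be unchanged.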

Other observations

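Psma8, an alpha-type proteasome subunit gene best known from the testis, lay under the filter and was among the 4 genes called with no filter. It was at 0.18, 0.14 and 0.09 RPKM in wild type, 2.06 and 1.63 RPKM in ZnF1-/- and 0.65 and 0.61 RPKM in ZnF4-/- (limma log2 difference of ZnF1-/- against wild type 1.85 ± 0.10, adjusted p = 0.0287). Both mutant libraries were above every wild type library. The gene was picked out after its values were seen.

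Dusp1, a phosphatase induced early by stress and growth signals, was at 22.36 RPKM in ZnF1-/- replicate 1 against 7.17 RPKM in wild type replicate 1. In the 50 bp libraries it was at 10.80 RPKM in ZnF1-/- and 9.42 and 9.68 RPKM in wild type, and it did not pass (adjusted p = 0.369).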
